A study of Equus caballus with 6 samples.

Results

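Long primary-type piRNAs were taken here as the sequences of 29 or 30 nt that begin with T and carry a base other than A at position 10, with positions counted from 1 at the 5′ end and T standing for the uridine of the RNA. The rule used sequence only, and 821195 of the 4936717 sequences in the table (16.6%) met it. They are called members below. The data were small RNA libraries from testes of the Mongolian horse, 3 from immature testis and 3 from mature testis, replicates 1 to 3 in each group. The labels give breed and tissue, and no age, stage or treatment. They do not say whether each library came from a separate animal, so the p-values measure the spread between these libraries, which may in part be technical. The table lists small RNA sequences of 25 to 32 nt and no genes, so the tissue labels could not be checked against marker genes.

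piRNAs are small RNAs that PIWI proteins carry in the germ line, as guides that silence transposons and lead to the cleavage or decay of other RNAs. A primary piRNA is cut from a long single-stranded precursor, its 5′ end is most often uridine, and its 3′ end is trimmed and methylated at a length set by the PIWI protein that holds it. In the ping-pong cycle a PIWI protein cuts a target opposite positions 10 and 11 of its guide, which gives a second piRNA whose first bases pair with those of the guide. A guide that begins with uridine then leaves an adenine at position 10 of its partner. In the mouse, MILI holds shorter piRNAs and MIWI longer ones, and the piRNAs of meiotic and later germ cells, called pachytene piRNAs, are mostly of the primary kind. The rule keeps length, a first T and the lack of A at position 10, and which PIWI protein held a sequence was not measured.

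The 6 members most abundant in mature testis are shown first, because the results on single sequences turn on them. In each, the capitals mark position 1 and position 10, on which the members were chosen.
uniq_5153807: TaatagagaCtgttgaaggatgaactcaac
uniq_5184017: TggaagtctGagagttctgttctggccagg
uniq_3925108: TgacgtaccTcttgaagtagcctgagtgt
uniq_5064998: TggaagtctGagagttctgttctggccagt
uniq_2483519: TgcaatcagCtggggacggaactccagga
uniq_2056404: TaaaatgttGccggagtaaatgctgtgtg

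Of the 6 members most abundant in immature testis, 3 are shown, marked in the same way.
uniq_3931856: TcccacatgGtctagcggttaggattcctg
uniq_2976976: TcattggtgGttcagtggtagaattctcgc
uniq_4523128: TcacgatgcTgaaactcaaactgctgacg

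By textbook knowledge, and not by a match to a reference, uniq_3931856 begins as the 5′ end of a tRNA does, and uniq_2976976 as that of a glycine tRNA with another first base. tRNAs carry amino acids to the ribosome, and their 5′ pieces are common small RNAs in many tissues. The rule admits them because it reads no origin, so the label of primary-type piRNA does not describe every member.

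The libraries held 1382083, 2347351 and 1462339 reads of the table in immature testis and 4139452, 4032042 and 4550970 in mature testis. All shares and CPM (a library's reads of a sequence, scaled to its column total) are relative to these totals. They count only sequences that the table lists, and they are not the sequencing depth. Member reads numbered 152073, 258382 and 169313 in the immature libraries and 1341852, 1183675 and 1430915 in the mature ones. The 95% Wilson interval of each library's member share reached at most 0.0522 percentage points to either side, and a count of 0 (up to 3 reads) allows up to 2.17 CPM in the smallest library. Such intervals and floors cover counting error only, since PCR copies of a molecule were not marked. The members were proposed with results of these data known, so shares over them are given as values with no p. With 3 libraries against 3, an exact permutation test cannot go below 0.1.

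Members made up a larger share of the reads in mature testis than in immature testis. Their share was 11.003%, 11.007% and 11.6% in the immature libraries and 32.4%, 29.4% and 31.4% in the mature ones, which gives 11.2% ± 0.331 (SD, n = 3) and 31.1% ± 1.56. The groups did not overlap, and the mature mean was 2.78 times the immature mean. Counted over distinct sequences the shares were 11.9% ± 0.255 and 23.4% ± 1.10, so both the number of sequences and the reads per sequence entered the difference. In whole-tissue RNA, fewer cells of a type and less RNA per cell cannot be told apart.

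Sequences that begin with T and lack A at position 10 were ordered by length. Those of 25 to 27 nt held 31.1% ± 1.12 of immature reads and 13.1% ± 0.813 of mature reads. Those of 28 nt, just below the members, held 6.64% ± 0.645 and 5.11% ± 0.231. Those of 31 nt, just above, held 3.77% ± 0.528 and 12.2% ± 1.25. The mature share was thus lower at 28 nt and higher at 31 nt, with no overlap of the groups at either length. Among all reads that begin with T and lack A at position 10, the share of members was 21.0% ± 0.492 in immature and 48.7% ± 2.44 in mature testis.

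Base 10 did not set the members apart in this respect. Sequences of 29 to 30 nt that begin with T and do carry A at position 10 held 5.26% ± 0.262 of immature and 14.0% ± 0.404 of mature reads. Within the reads that begin with T and carry A at position 10, those of 29 to 30 nt were 23.8% ± 0.512 and 53.9% ± 2.46. Sequences of 29 to 30 nt with another first base and no A at position 10 held 3.84% ± 1.42 and 2.24% ± 0.161, with the immature libraries above. Counted over distinct sequences this class held 1.72% ± 0.239 and 3.47% ± 0.214, with the mature libraries above, as for the members.

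Within the members, mature testis held more of the 30 nt form. Reads of 30 nt were 32.9%, 38.1% and 35.0% of member reads in the immature libraries and 48.8%, 52.8% and 49.9% in the mature ones (35.4% ± 2.63 and 50.5% ± 2.05). The groups did not overlap. Counted over distinct members they were 33.8% ± 1.84 and 46.0% ± 1.21. Members of 29 nt went from 7.24% ± 0.378 to 15.4% ± 1.40 of all reads, and those of 30 nt from 3.96% ± 0.301 to 15.7% ± 0.165.

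The same 5′ ends were read at different lengths in the 2 groups. A 5′ end was taken as the first 25 nt, and 9662 ends that begin with T and lack A at position 10 had at least 10 reads in each group. Of the reads at these ends, members held 25.04%, 30.4% and 29.2% in immature libraries and 54.4%, 49.4% and 52.3% in mature libraries, or 28.2% ± 2.82 and 52.1% ± 2.51. The groups did not overlap. With each end given equal weight the mean shares were 35.1% and 44.4%, and the share was higher in mature testis at 6541 ends (67.7%), higher in immature testis at 2624 (27.2%) and equal at 497. The move to greater length was therefore seen at ends that both groups used, and it was smaller when abundant ends did not dominate.

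Ends used by 1 group differed more. At 14175 ends with at least 10 reads in mature testis and none in immature testis, members held 44.4% to 48.6% of the reads of the single libraries. At 7606 ends with the opposite pattern they held 14.97% to 17.7%. Members occupied 572107 ends in all. A shorter form of 25 to 28 nt was listed at 33.02% of these ends and a longer form of 31 to 32 nt at 15.6%, 12.6% had members of both 29 and 30 nt, and 62.3% had no form of another length class.

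The length profile at the members' own 5′ ends showed where the other reads lay. In immature testis, 27 nt reads made up 20.3% ± 0.594 of the reads at these ends and 26 nt reads 15.5% ± 0.819. In mature testis they made up 8.55% ± 0.494 and 6.46% ± 0.609. Reads of 29 nt were similar in the 2 groups, 24.2% ± 1.44 and 26.5% ± 2.35, and the libraries overlapped. Reads of 30 nt were 13.2% ± 0.796 and 26.96% ± 0.360, and reads of 31 nt 9.62% ± 2.02 and 18.6% ± 2.05, without overlap. Since each of these ends was chosen for having a member, these values describe the other lengths beside it.

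Most members were rare, and a few carried much of the signal. Of the 821195 members, 590027 (71.8%) had a single read in all libraries together and 629196 (76.6%) were found in 1 library, against 77.0% and 81.3% of all sequences in the table. A total of 4213 members (0.513%, against 0.348% of all sequences) were found in all 6 libraries, and they held 22.0% ± 2.26 of immature and 37.6% ± 1.31 of mature member reads. Of the members, 503917 were read in mature libraries only, 251182 in immature libraries only and 66096 in both groups. These counts depend on depth, since the mature libraries held more reads and a member with a single read must fall in 1 group. No share over all sequences stands beside them, so they are not read as a trait of the members. The immature-only members held 54.5% ± 7.82 of immature member reads, while the mature-only members held 27.8% ± 1.22 of mature member reads.

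Mature member reads were gathered on fewer sequences. After each library was thinned to 152073 member reads, distinct members numbered 99944 ± 4240 in immature and 58105 ± 2184 in mature testis, a ratio of 0.581. At that depth the number of members needed to hold 50% of the member reads was 23908 ± 4240 and 3741 ± 328. The 1000 most abundant members held 19.5% ± 1.89 and 32.6% ± 0.965 of member reads. When whole libraries, not their member reads, were thinned to the same total, the ratio was 1.20, since more of each mature library then consists of members. Fewer sequences per read were not particular to the members. Over the whole table immature replicate 2 listed 1287313 distinct sequences from 2347351 reads. The mature libraries listed 1141459, 1126572 and 1141983 from 4139452, 4032042 and 4550970 reads.

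Members were also frequent among the leading sequences of the mature libraries. Of the 100 most abundant sequences of a library, 11, 8 and 9 were members in immature testis and 39, 38 and 44 in mature testis. Of the 1000 most abundant, members were 12.9% ± 0.850 and 39.4% ± 2.88. The groups did not overlap in either count.

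Small differences in base composition ran along most of the sequence. At positions 2 to 28 without position 10 there are 104 pairs of a base and a position, and in 77 of them (74.0%) the groups did not overlap in member reads. The median difference was 1.59 points, or 0.875 points over distinct members. The GC content of member reads was 47.3% ± 0.293 in immature and 46.7% ± 0.163 in mature testis, and over distinct members it was 47.1% ± 0.292 and 47.2% ± 0.143, with overlap. At position 2, A was found in 25.4% ± 1.14 and 29.2% ± 0.449 of reads, C in 22.0% ± 1.91 and 18.4% ± 0.359, and G in 37.5% ± 1.45 and 38.4% ± 0.204, and of these 3 bases G overlapped. Over distinct members the direction turned for A, with 25.9% ± 0.556 and 24.5% ± 0.145, and for C, with 17.8% ± 0.839 and 19.9% ± 0.0668.

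The rule excludes A at position 10, so only C, G and T share that position. C was at position 10 in 24.03% ± 0.477 of immature and 27.6% ± 0.473 of mature member reads, G in 35.7% ± 0.801 and 32.9% ± 0.176, and T in 40.2% ± 0.394 and 39.5% ± 0.300. The groups did not overlap for any of the 3 bases. Over distinct members G overlapped, at 33.1% ± 0.508 and 32.8% ± 0.254. Position 10 did not stand apart in this: at position 12, over reads, C was 24.6% ± 1.48 and 20.6% ± 0.0738 and G 27.7% ± 0.963 and 32.9% ± 0.422, also without overlap.

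Over reads, A at position 5 differed most between the groups among these 104 pairs. It was found in 34.3%, 38.5% and 38.3% of immature member reads and in 45.7%, 46.1% and 45.6% of mature member reads. The groups did not overlap. Counted over distinct members the values were 36.4% ± 1.47 and 38.2% ± 0.311, a smaller difference that also did not overlap. There G at position 28 differed most, with 36.2% ± 0.524 in immature and 31.4% ± 0.118 in mature testis. In sequences of 25 to 27 nt that begin with T and lack A at position 10, A was at position 5 in 36.2% ± 1.19 and 38.6% ± 0.309 of reads.

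G was frequent at the base before the last, most clearly at 30 nt. In distinct 30 nt members the base before the last was G in 49.8% ± 1.05 of immature and 48.3% ± 0.483 of mature members, and the libraries overlapped. In distinct 29 nt members it was G in 39.5% ± 0.169 and 36.0% ± 0.306, without overlap. The last base of 30 nt member reads was T in 36.6% ± 3.66 and 35.6% ± 1.61. At 29 nt it was T in 33.7% ± 2.13 and 29.6% ± 1.05, and here the immature libraries were all above the mature ones.

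Whether a last base is copied from the genome could not be read directly, since no genome was used. Longer sequences of the table with the same preceding bases gave a substitute: where they had at least 5 reads and at least 90% of them showed 1 base, a member's last base was set against it. At 29 nt this covered 44947 members, with 22.1% ± 6.01 of immature and 59.6% ± 1.23 of mature reads of that length. At 30 nt it covered 11465 members, with 22.9% ± 4.24 and 37.3% ± 0.50007 of the reads. The last base differed from that of the longer sequences in 31.3% ± 2.70 of covered immature reads and 24.4% ± 1.60 of covered mature reads at 29 nt, and in 36.0% ± 2.61 and 32.2% ± 1.07 at 30 nt. The base 2 positions before the last differed in 0.833% ± 0.0664 and 0.489% ± 0.0701 at 29 nt and in 0.744% ± 0.256 and 1.06% ± 0.358 at 30 nt. Counted over distinct members the order of the groups was the opposite at both lengths: 41.5% ± 4.43 and 54.7% ± 0.299 of covered members differed at 29 nt, and 43.2% ± 6.72 and 59.6% ± 0.265 at 30 nt. Differences from longer sequences were far more frequent at the last base than further in, in every library.

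The group difference over reads rested on a few families. A family is every sequence within 2 mismatches of the first 25 nt of a named member. Without the families of the 6 leading immature members the last base differed in 25.6% ± 3.78 and 24.2% ± 1.57 of covered reads at 29 nt and in 29.9% ± 5.33 and 32.1% ± 1.07 at 30 nt, with overlap at both lengths. At 30 nt the differing base was T in 77.7% ± 8.79 of immature and 58.0% ± 3.72 of mature reads with all families, and in 54.8% ± 3.04 and 56.5% ± 3.82 without them. A form that is not listed in the table cannot be counted: at 29 nt, 12.6% of the stretches with a covered member had no listed member with the matching base, and at 30 nt 8.24%.

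The base that follows the 3′ end of a 29 nt member was read from sequences of 31 to 32 nt of the same library that share its 29 nt. T followed in 25.1% ± 0.439 of immature and 28.6% ± 0.828 of mature reads, and A in 18.3% ± 1.07 and 24.8% ± 0.118, without overlap. C followed in 27.3% ± 1.54 and 21.6% ± 1.29 and G in 29.3% ± 0.480 and 24.97% ± 0.618, also without overlap. At positions 24 to 28 of the same length class T made up 24.9% ± 0.594 and 25.5% ± 0.235 of reads, and these overlapped. A, at 20.1% ± 0.413 and 20.6% ± 0.326 there, overlapped too. C, at 22.5% ± 0.0383 and 21.4% ± 0.137, did not. Single positions within this stretch can differ where the pooled values overlap.

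The members' share of possible ping-pong pairs was read from the first 10 nt. A partner is a sequence of the same library whose first 10 nt are the reverse complement of the member's first 10 nt. By construction a partner of a member carries A at position 10 and does not begin with T. A partner was found for 42.6% ± 5.96 of immature and 37.7% ± 0.533 of mature member reads. With libraries thinned to the smallest total the shares were 39.1% ± 1.04 and 23.9% ± 1.03, without overlap. Chance pairs are frequent in libraries of this size, so windows shifted by 1 to 5 nt along the member were searched as background.

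With plain shifted windows the excess was 3.43 ± 3.07 points in immature and 0.572 ± 0.591 points in mature testis, and the libraries overlapped. It was 2.68 ± 1.94 and −1.05 ± 0.837 points with libraries thinned to the smallest total and 1.48 ± 1.42 and −3.62 ± 0.279 points over distinct members, in both cases with the immature libraries above. The plain windows differ from the true one in their end bases. With shifted windows that, like the true one, begin with T and end in a base other than A, the excess was 4.49, 7.98 and 6.03 points in the immature libraries and 5.56, 5.49 and 5.18 points in the mature ones. These also overlapped. With each distinct member counted once it was 4.23 ± 0.292 and 2.16 ± 0.346 points, with the immature libraries above the mature ones. In sequences of 29 to 30 nt that begin with T and carry A at position 10, whose partners begin with T, 89.3% ± 2.41 and 86.3% ± 0.448 of reads had a partner. With plain windows their excess was 49.1 ± 0.745 and 49.4 ± 2.32 points. With windows of their own end bases the background was already 85.5% ± 3.51 and 83.2% ± 2.98, which leaves little room for an excess, so it is not compared with that of the members.

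The lengths of the partners differed between the groups. Of partner reads, those of 27 nt were 32.1% ± 0.368 in immature and 13.1% ± 0.381 in mature libraries, and those of 30 nt were 7.16% ± 0.416 and 21.8% ± 0.956. Those of 28 nt were 14.3% ± 0.393 and 19.3% ± 1.09. In none of these did the groups overlap. Chance pairs are included in these values. Plain shifted windows matched 39.2% ± 2.92 of immature and 37.1% ± 0.279 of mature member reads, close to the true window. Reads that begin with T and lack A at position 10 are not partners, yet their lengths differed too. Those of 27 nt made up 28.4% (immature) and 10.5% (mature), and those of 30 nt 7.43% and 24.6%. At 28 nt they went the other way, 12.4% and 8.01%. The lengths are not read as a trait of ping-pong pairs.

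For the abundant members a stricter search was possible. Of the 5000 members with the highest mean CPM, 4141 had another, overlapping sequence that reached at least 8 nt upstream of the member's 5′ end, so that at least 18 nt of a partner could be checked. Unlike above, the partner and the overlapping sequence could come from any of the libraries. A partner supported in this way was found for 615 of these members (14.9%). The median partner was 28 nt long, 43.7% of the partners were of 25 to 27 nt and 48.3% of 29 to 32 nt. The 3 most abundant members with such a partner are shown with it, the paired first 10 nt in capitals.
uniq_2483519: TGCAATCAGCtggggacggaactccagga
uniq_4901519: GCTGATTGCAgagcaatttacactgat
uniq_2081630: TGTTAGTGTCctcttctactgtccacaggt
uniq_2061028: GACACTAACAggacctgctgcacagagt
uniq_2709186: TGACTGTGACtgaggccatgctctcactgg
uniq_5807770: GTCACAGTCAgcaccagcctgcctgcactg

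The first of these partners was abundant in its own right. uniq_4901519, a 27 nt sequence, had 7, 43 and 24 reads in the immature libraries and 581, 634 and 822 in the mature ones, or 13.3 ± 7.17 and 159 ± 20.2 CPM. Its member uniq_2483519 had 63.1 ± 76.0 and 926 ± 27.3 CPM, so in mature testis the member was the more abundant of the pair. uniq_2061028 had 4.25 ± 3.29 and 15.4 ± 7.80 CPM beside 53.8 ± 22.2 and 772 ± 60.1 CPM of its member uniq_2081630. uniq_5807770 had 4 reads in all libraries (0, 1 and 0 against 0, 1 and 2), beside 33.3 ± 20.6 and 464 ± 90.9 CPM of uniq_2709186.

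Single sequences were tested with edgeR's quasi-likelihood test over the whole table. After a filter on low counts 31788 sequences were tested, of which 9537 were members. These are 1.16% of all members and hold 54.9% of the member reads, so the counts below describe the abundant members and not the class. A sequence could pass the filter through the group in which it was high alone. A call is an adjusted p under 0.05 (Benjamini-Hochberg over all tested sequences).

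The calls depended on the scale. With TMM factors, which assume that most tested sequences do not change, 966 tested members (10.1%) were higher in mature testis and 761 (7.98%) higher in immature testis. Among all tested sequences 8.41% passed in the mature direction and 21.9% in the immature direction. Scaled by library totals instead, 8760 members (91.9%) passed in the mature direction and 644 (6.75%) in the immature direction, against 77.7% and 20.3% of all tested sequences. The median log2 fold change, mature over immature, of the tested members was 0.94 with TMM and 3.46 with library totals, and that of all tested sequences was 0.62 and 3.15. Members called in mature testis were 55.9% of the called members on the first scale and 93.2% on the second.

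The 2 scales are not independent. TMM factors were 0.3602, 0.4419 and 0.4189 in the immature libraries and 2.405, 2.381 and 2.619 in the mature ones. Library totals therefore move fold changes toward mature testis, so a TMM call in that direction is expected to pass again. Equally, a call toward immature testis with library totals is expected to pass with TMM. A call on both scales is thus no added support. On both scales 966 members were higher in mature testis (10.1%, against 8.41% of all tested sequences) and 644 higher in immature testis (6.75%, against 20.3%), and 0 members were called in opposite directions. By CPM alone, all 3 mature libraries lay above all 3 immature ones for 8686 tested members (91.1%, against 77.0% of all tested sequences), below them for 644 (6.75%, against 20.2%) and overlapping for 207 (2.17%, against 2.83%). The members higher in mature testis on both scales held 1.03% ± 0.472 of immature and 10.4% ± 0.229 of mature member reads. The members higher in immature testis held 9.95% ± 1.52 and 0.332% ± 0.0478. The filter and the choice by the test partly set these orders and shares. Tested members had median CPM of 0.882 (immature libraries) and 8.43 (mature libraries). The medians were 0.142 and 11.9 CPM for members higher in mature testis, and 9.1 and 0.463 CPM for those higher in immature testis. A single read is 0.426 to 0.724 CPM in the immature libraries, so many counts there were near 0.

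The 2 lengths gave different counts of calls. On the TMM scale 507 of 4548 tested members of 30 nt (11.1%) passed toward mature and 195 (4.29%) toward immature testis. Among 4989 members of 29 nt the counts were 459 (9.20%) and 566 (11.3%). Over all tested sequences the shares were 8.41% and 21.9%. With library totals the counts were 4346 (95.6%) and 142 (3.12%) at 30 nt and 4414 (88.5%) and 502 (10.1%) at 29 nt. Over all tested sequences they were then 77.7% and 20.3%, so the turn of the balance at 29 nt was shared by the whole table. Of the members higher in mature testis on both scales 52.5% were of 30 nt, against 22.0% of those higher in immature testis and 47.7% of all tested members. A at position 5 was found in 44.4% and 32.6% of the same called groups, and C at position 10 in 25.7% and 17.5%, against 42.8% and 26.6% of all tested members. These shares describe sequences chosen by the test and have no test of their own.

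The balance of calls in neighbouring classes differed by length. On the TMM scale 106 of 5395 tested sequences of 25 to 27 nt (1.96%) passed toward mature and 2452 (45.4%) toward immature testis. At 28 nt the counts were 93 and 499 of 1867, and at 31 to 32 nt 527 and 197 of 4115. Sequences of 29 to 30 nt with A at position 10, the nearest class to the members, gave 438 (11.2%) and 382 (9.77%) of 3908. With library totals the balance turned at 25 to 27 nt, to 2912 (54.0%) toward mature and 2326 (43.1%) toward immature testis, and at 28 nt, to 1358 and 458. It turned in the same way over all tested sequences. On the TMM scale the members' median log2 fold change of 0.94 lay beside 0.93 in that class, −0.73 at 25 to 27 nt and 1.12 at 31 to 32 nt.

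The leading member of mature testis was uniq_5153807. It had 73, 1 and 247 reads in the immature libraries and 9363, 5612 and 12788 in the mature ones, or 74.1 ± 86.2 and 2155 ± 715 CPM. The mature libraries were all far above the immature ones, and the single read in immature replicate 2 stood apart from the other immature libraries. The log2 fold change was 2.24 ± 0.63 (SE) with TMM (edgeR adjusted p = 0.00179) and 4.87 ± 0.83 with library totals (edgeR adjusted p = 2.97e-08). The ratio of mean CPM was 29.1, and 80.9 without immature replicate 3. The call was lost without immature replicate 1 (edgeR adjusted p = 0.104), with a filter of 10 CPM in 3 libraries (edgeR adjusted p = 0.185) and with DESeq2 (log2 fold change 2.22, adjusted p = 0.152).

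uniq_5184017 and uniq_5064998 share their first 29 nt and differ in the last base, which is G in the first and T in the second. uniq_5184017 had 66, 398 and 197 reads in the immature libraries and 7173, 6678 and 7202 in the mature ones (117 ± 62.7 and 1657 ± 75.2 CPM). uniq_5064998 had 36, 314 and 127 reads and then 5452, 3040 and 5046 (82.2 ± 54.0 and 1060 ± 285 CPM). For both, every mature library was above every immature one. Neither passed in the main fit with TMM (log2 fold change 1.27 and 1.14, edgeR adjusted p = 0.107 and 0.148). Both passed with library totals (3.82 and 3.68, edgeR adjusted p = 2.42e-06 and 3.10e-06). They also passed with DESeq2 (1.42 and 1.33, adjusted p = 0.000204 and 0.0154) and without immature replicate 2 (edgeR adjusted p = 0.0276 and 0.0319).

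The other leaders of mature testis followed the same pattern. uniq_3925108 had 58, 324 and 168 reads in immature and 4649, 4192 and 7099 in mature libraries, 98.3 ± 50.1 and 1241 ± 279 CPM. uniq_2483519, which has the abundant partner given above, had 57, 1 and 216 reads and then 3710, 3829 and 4245. uniq_2056404 had 39, 302 and 91 reads and then 3964, 3226 and 4418, 73.0 ± 51.1 and 909 ± 94.98 CPM. None of the 3 passed in the main fit with TMM (edgeR adjusted p = 0.168, 0.102 and 0.168). Each passed with library totals (edgeR adjusted p = 4.04e-06, 1.26e-06 and 3.53e-06). uniq_3925108 and uniq_2056404 also passed with DESeq2 (adjusted p = 0.00141 and 0.00534) and without immature replicate 2 (edgeR adjusted p = 0.0474 and 0.0194). uniq_2483519 failed with DESeq2 (adjusted p = 0.404). It passed with replicate number added to the model as a block (edgeR adjusted p = 0.0164) and without immature replicate 3 (edgeR adjusted p = 0.000572). The ratio of mean CPM of uniq_2483519 was 14.7, and 44.5 without immature replicate 3. That of uniq_2056404 was 12.5, and 20.1 without immature replicate 2.

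Apart from uniq_5153807, the most abundant members higher in mature testis on both scales were these 3, with positions 1 and 10 in capitals.
uniq_2695404: TacttctgaCatgccaagtctgagcaaggc
uniq_4395940: TagcacaggTggtagaactagaattggagc
uniq_2052130: TaggaacttTcacagggactctttctttt

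uniq_2695404 had 8, 100 and 37 reads in the immature libraries and 2421, 1752 and 2918 in the mature ones, 24.6 ± 18.4 and 554 ± 107 CPM (TMM log2 fold change 1.93 ± 0.62, edgeR adjusted p = 0.00785). The ratio of mean CPM was 22.5, and 35.6 without immature replicate 2. uniq_4395940 had 27.4 ± 15.3 and 452 ± 84.0 CPM (1.49 ± 0.61, edgeR adjusted p = 0.049), and uniq_2052130 had 24.2 ± 13.1 and 436 ± 70.1 CPM (1.60 ± 0.61, edgeR adjusted p = 0.0322). In all 3 the mature libraries lay above the immature ones. The TMM call was lost without immature replicate 3 for each (edgeR adjusted p = 0.0682, 0.0696 and 0.0963). It was also lost without mature replicate 1 for uniq_4395940 and uniq_2052130 (edgeR adjusted p = 0.0684 and 0.0501) and without mature replicate 2 for uniq_4395940 (edgeR adjusted p = 0.0882). The replicate block lost the calls of uniq_4395940 and uniq_2052130 as well (edgeR adjusted p = 0.0822 and 0.0567). A further alternative also lost each of these 2 calls, so the list is not complete.

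For uniq_3931856 and uniq_2976976 the call depended on the scale and, in the second, on 1 library. uniq_3931856 had 1919, 3080 and 1122 reads in the immature libraries and 4178, 3198 and 2594 in the mature ones, or 1156 ± 339 and 791 ± 220 CPM. Its libraries overlapped in CPM, and it passed with TMM (log2 fold change −3.16, edgeR adjusted p = 1.40e-05) and not with library totals (−0.55, edgeR adjusted p = 0.438). The glycine tRNA piece uniq_2976976 rested on 1 library: it had 965, 81 and 29 reads in the immature libraries and 849, 396 and 658 in the mature ones. Its log2 fold change with TMM was −3.50 (edgeR adjusted p = 5.07e-07), and without immature replicate 1 it was 0.20 (edgeR adjusted p = 0.828).

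The families of the 6 leading immature members together made up 5.25% ± 1.55 of member reads in immature and 0.801% ± 0.221 in mature testis. Without them the members' share of reads was 12.1% ± 0.396 in immature and 31.5% ± 1.86 in mature testis, and the groups again did not overlap.

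The most abundant members higher in immature testis on both scales also included 2 sequences not yet shown, again with positions 1 and 10 in capitals.
uniq_3595018: TtaaagttgCtgcagttaaaaagctcgta
uniq_287453: TtttgctgaGgaagactggccctgagcta

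uniq_4523128 had 283, 445 and 441 reads in the immature libraries and 78, 105 and 93 in the mature ones, 232 ± 60.8 and 21.8 ± 3.78 CPM. Its fall was the largest among these sequences on either scale, −6.01 ± 0.74 with TMM (edgeR adjusted p = 2.76e-15) and −3.41 ± 0.72 with library totals (edgeR adjusted p = 4.46e-06). uniq_3595018, which by textbook knowledge reads as a piece of the small ribosomal subunit RNA, had 206 ± 63.0 and 49.2 ± 5.81 CPM (edgeR adjusted p = 9.42e-11 with TMM and 0.0025 with library totals). uniq_287453 had 192 ± 81.5 and 26.3 ± 3.22 CPM (edgeR adjusted p = 1.18e-13 with TMM and 5.71e-05 with library totals). In all 3 every immature library lay above every mature one.

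The forms at the 5′ end of the leader of mature testis differed little in length. They are printed with the first 25 nt in lower case and what follows in capitals.
uniq_5153807: taatagagactgttgaaggatgaacTCAAC
uniq_5153796: taatagagactgttgaaggatgaacTCAAT
uniq_3969981: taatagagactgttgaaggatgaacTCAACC
uniq_5240887: taatagagactgttgaaggatgaacTCAA
uniq_2654299: taatagagactgttgaaggatgaacTCA
uniq_3731993: taatagagactgttgaaggatgaacTC

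At the 5′ end of uniq_5153807 there were 49 forms with 34396 reads. Those of 30 nt held 95.3%, 93.9% and 95.6% of the reads in the mature libraries and 95.1%, 73.0% and 91.5% in the immature ones, where the end had 82, 100 and 293 reads. This end was thus read almost only at 30 nt. The 29 nt form uniq_5240887 had 83, 36 and 81 reads in the mature libraries and the 31 nt form uniq_3969981 had 85, 108 and 157. The 30 nt form with a last T, uniq_5153796, had 733, 570 and 978, where longer forms show C.

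For 2 of the leading members with a single read in immature replicate 2, a form that differs at 1 base was also listed. Substitutions are written with the base of the first form, the position from the 5′ end and the base of the second form, and the differing base is in capitals.
uniq_5153807: taatagagactgttgaaggatgaacTcaac
uniq_4729505: taatagagactgttgaaggatgaacGcaac
uniq_2483519: tgcaatcagctggggaCggaactccagga
uniq_4332595: tgcaatcagctggggaGggaactccagga

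uniq_4729505 differs from the mature leader by T26G. It had 0, 72 and 0 reads in the immature libraries and 3, 1053 and 0 in the mature ones. Immature replicate 2, with 1 read of uniq_5153807, thus had 98.6% of the reads of the pair in the second form, and mature replicate 2 had 15.8%. In the other 4 libraries the second form held at most 0.0320%. The sum of both forms was 52.8, 31.1 and 169 CPM in the immature libraries and 2263, 1653 and 2810 CPM in the mature ones, so the sum in immature replicate 2 was nearer to that of its group than the leader alone.

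uniq_4332595 differs from uniq_2483519 by C17G and behaved alike in immature replicate 2, where it had 86 reads against 1 of uniq_2483519, or 98.9% of the pair. In the other libraries it held 8.06% and 22.0% in immature and 30.8%, 27.5% and 26.5% in mature testis. The sum of both forms was 44.9, 37.1 and 189 CPM in the immature and 1295, 1310 and 1269 CPM in the mature libraries. The ratio of the mean sums was 14.3, and for the first pair 26.6.

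Such pairs were searched among the 5605 members with at least 100 reads. There were 125 pairs that differ at 1 base and have at least 20 reads of the pair in at least 2 libraries. In 18 of them (14.4%) the second form held over 90% of the pair in 1 library and under 10% in another. 2 further pairs show the pattern between mature libraries.
uniq_4846095: tagaaacttctgaaccAaggctagatgtg
uniq_2509437: tagaaacttctgaaccCaggctagatgtg
uniq_3126418: tatctgttgcagtcagaggaactgagcAcc
uniq_4606495: tatctgttgcagtcagaggaactgagcGcc

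uniq_2509437, which differs from uniq_4846095 by A17C, held 35.3%, 99.4% and 0.106% of its pair in mature replicates 1, 2 and 3, with 1083, 1426 and 4 reads. uniq_4606495, which differs from uniq_3126418 by A28G, held 30.97%, 0.442% and 99.9%, with 554, 7 and 1009 reads. Both pairs were chosen after their values were seen. The second form held over 90% of a pair in immature replicates 1, 2 and 3 in 2, 4 and 0 of the 18 pairs. In mature replicates 1, 2 and 3 it did so in 2, 7 and 6 of them, so no single library made up the pattern. These counts are of pairs and not of separate sites, since the 18 pairs hold 17 distinct first forms and some repeat 1 substitution. A17C of uniq_4846095 recurs in uniq_4040787 and A28G of uniq_3126418 in uniq_3175278, which are other lengths of the same 5′ ends. Whether the forms are alleles of 1 locus, copies of several loci or come from another source was not tested.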

How the data were processed

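Small RNA libraries of Mongolian horse testis, 3 labelled immature and 3 labelled mature, were read from 1 deposited table. It holds the authors' whole-number read counts per distinct sequence, not normalized, with 1 column per library, per the file headers. Per the submitters' processing notes Bowtie was used. No build, annotation or calling step is given in the sources used here. The file is named for newly found piRNAs, so sequences known before may be listed elsewhere. The columns summed to 1382083 to 4550970 reads, and 0 columns were left unassigned. Positions in the genome were not analysed here.

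The members, lists and tests were chosen with earlier results of these data known. Groups came from the sample titles. edgeR 4.0.16 in R 4.3.3 was run on the counts of all sequences with filterByExpr defaults, TMM factors and glmQLFTest, after a check on simulated counts. The alternatives were DESeq2 1.42.0, library totals, upper quartile factors, other filters, thinning, each library left out and a replicate block. Shares, CPM, thinning and 10 nt pairs were computed with Python 3.11.15 and numpy 2.4.6. Libraries of 1 group were compared over sequences with at least 10 reads in the pair, and none agreed within counting noise (chi-square per sequence 4.34 to 8.61).

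Sequences were named by rule: the 6 members highest in mean CPM in each group, the 4 highest among those called in 1 direction on both scales, the forms at the 5′ end of each leader, and the 3 most abundant members with a supported partner. Some named members of immature testis are not reported here. One-base forms were added after the data were seen.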

Additional observations from a re-analysis of the deposited data

How the results depend on the processing

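The number of members called depended on the scale and on the filter. Against 966 members higher in mature testis with TMM factors, there were 8760 with library totals, 5342 with upper quartile factors (56.0% of tested members, against 43.5% of all tested sequences), 1608 with DESeq2 (16.9%, 12.7%), 158 with a filter of 10 CPM in 3 libraries (5.02%, 4.61%), 10344 with no filter beyond 6 reads (14.4%, 9.81%) and 280 with libraries thinned to the smallest total (6.52%, 5.96%). Against 761 higher in immature testis, the filter of 10 CPM gave 181 (5.75%, 19.1%), no filter beyond 6 reads gave 5407 (7.53%, 19.5%) and thinning gave 292 (6.80%, 20.8%). The filters and thinning also change how many members are tested. Leaving out 1 library at a time also changed the number of tested members, from 9537 to between 8078 and 15498. It gave 663 (4.28%, 3.35%) to 2373 (15.4%, 11.7%) members higher in mature testis. The lowest count was without immature replicate 3 and the highest without immature replicate 2. Toward immature testis it gave 887 (10.98%, 30.8%) to 1046 (6.75%, 19.1%), so the order of counts and of shares can differ.

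The replicate numbers are shared by the groups, and the labels do not say whether they pair the libraries. Same-numbered libraries deviated from their group means with correlations of 0.04, −0.09 and 0.01. Those of different number gave −0.0845 to 0.0798. With 3 libraries in each group such values cannot decide whether libraries shared an animal or a batch. With the replicate block 217 members (2.28%, against 2.18% of all tested sequences) passed toward mature and 717 (7.52%, against 21.4%) toward immature testis. With the block on library totals 8658 (90.8%, against 76.3%) passed toward mature testis.

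With each distinct sequence counted once, the difference in the share of reads was 11.5 points in place of 19.9 and that in the 30 nt share 12.3 points in place of 15.1. The ratio of distinct members, 0.581 at equal member reads, was 1.20 with whole libraries thinned and 0.857 without sequences of 1 read. The difference between the groups in T after the 3′ end, mature minus immature, was 3.53 points. It was 4.69 points where longer sequences had at least 2 reads in the library. For uniq_2976976 the log2 fold change ran from −3.70 without mature replicate 1 to 0.195 without immature replicate 1. Except where the alternative itself changes the number tested, the cause was not tested.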
